A study of Mus musculus with 12 samples.

Results

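The genes described here encode the protein components of the mitochondrial ribosome. They were chosen by name, as the protein-coding genes whose mouse symbol starts with Mrpl or Mrps. There were 78 of them among 21865 protein-coding genes and 53379 gene identifiers in the count files, and 75 had enough counts to be tested. The tissue was perigonadal white fat, the visceral depot beside the gonads, from C57BL/6 mice aged 9 weeks and killed at zeitgeber time 9. Mice called ko carried an adipose knockout of Cdk7, a kinase that is part of the general transcription factor TFIIH and activates cell cycle kinases, and mice called wt were their control littermates. The promoter that drove the deletion is not given in the sources used here. Mice received saline or a compound labelled only CL for 7 days, which gave 4 groups of 3 libraries, wt saline, wt CL, ko saline and ko CL. Each library pooled 250 ng of RNA from each of 2 mice to 500 ng, with 6 mice behind a group. Every p-value below therefore reflects variation among such pools, not among single mice.

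Groups were read from the sample titles, because a second genotype label followed the treatment and contradicted 6 titles. Cdk7 itself was at 29.3 to 35.4 CPM (counts scaled to a common library size) in the 6 wt libraries and at 11.02 to 23.6 in the 6 ko libraries, with no overlap (exact two-sided permutation test, p = 0.00216). In fits that each left out 1 library, the log2 fold change of Cdk7 in ko against wt was -1.39 to -1.34 under saline. Under CL it was -0.80 to -0.61, so the gap was smaller there. Library totals ran from 21892817 to 27985019 gene counts. The tissue's own markers were present in every group: the 8 adipocyte markers summed to 38450 to 42170 CPM in wt saline, 44854 to 47921 in wt CL, 27779 to 28854 in ko saline, and 17962 to 23207 after CL in ko. The 10 macrophage markers summed to 1314 to 1397, 721 to 858, 1308 to 1360 and 10512 to 15294 CPM in the same order, and all 10 were higher in ko CL than in ko saline. The 6 ciliated epithelium markers summed to 27.3 CPM in wt saline replicate 1, to 2.32 and 3.74 in replicates 2 and 3 of that group, and to between 53.1 and 71.4 in ko saline. In this whole tissue, fewer cells of a type and less RNA per cell cannot be told apart.

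Mitochondria carry their own ribosome, which translates the few messenger RNAs of the mitochondrial genome into core subunits of the respiratory chain and the ATP synthase. Its ribosomal RNAs are made inside the organelle, whereas all its proteins are encoded in the nucleus, translated in the cytosol and imported. Many of the proteins descend from those of bacterial ribosomes and others are particular to mitochondria. In fat, sustained beta-adrenergic stimulation is known to raise mitochondrial content and oxidative capacity. Of the 78 genes, 51 belong to the large subunit, which joins amino acids, and 26 to the small subunit, which reads the messenger RNA. Despite their names, Mrps18a and Mrps30 sit in the large subunit. Mrps36, the remaining gene, is now known as a component of the alpha-ketoglutarate dehydrogenase complex, and it was kept because the name rule includes it.

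The start regions of some of these genes are shown because most of the members moved together. RefSeq start windows (GRCm38.p6, 250 bases before to 50 after the start) matched 69 of the 78 genes. The windows were searched on both strands for the core read by NRF1, a regulator of nuclear genes for mitochondrial proteins, which appears in capitals in the lines of Mrpl12 and Mrpl45. They were also searched for CCGGAAG, a core that is read by transcription factors of the ETS family. The other searches were for AAGATGGCG, a core read by the factor YY1, for the cAMP response element TGACGTCA, and for CCAATC, a box that is read by the factor NF-Y. These motifs and the genes printed were chosen after values had been seen. Mrps2, Mrps22, Mrpl12 and Mrpl16 had the largest responses to CL in wt fat, Mrpl45 held several matches, and Mrpl52 did not pass the test there. Each line gives the 150 bases before the start, 5′ to 3′ on the gene's strand, in lower case with NRF1, ETS, YY1 and cAMP response element letters in capitals.
Mrps2 (chr2:28467916-28468065, strand plus): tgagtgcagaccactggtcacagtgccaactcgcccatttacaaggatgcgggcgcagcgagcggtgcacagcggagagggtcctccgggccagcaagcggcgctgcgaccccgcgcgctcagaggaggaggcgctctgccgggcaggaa
Mrps22 (chr9:98601680-98601829, strand minus): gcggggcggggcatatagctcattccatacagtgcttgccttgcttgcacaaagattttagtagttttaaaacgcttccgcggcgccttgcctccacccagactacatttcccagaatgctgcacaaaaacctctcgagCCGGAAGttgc
Mrpl12 (chr11:120484487-120484636, strand plus): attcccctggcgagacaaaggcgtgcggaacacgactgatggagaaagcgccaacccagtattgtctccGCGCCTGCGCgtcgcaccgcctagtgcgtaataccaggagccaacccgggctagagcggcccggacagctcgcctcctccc
Mrpl16 (chr19:11770265-11770414, strand plus): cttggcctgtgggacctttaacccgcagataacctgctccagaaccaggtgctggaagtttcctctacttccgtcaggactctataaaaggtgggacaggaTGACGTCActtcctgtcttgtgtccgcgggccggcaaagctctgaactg
Mrpl45 (chr11:97315566-97315715, strand plus): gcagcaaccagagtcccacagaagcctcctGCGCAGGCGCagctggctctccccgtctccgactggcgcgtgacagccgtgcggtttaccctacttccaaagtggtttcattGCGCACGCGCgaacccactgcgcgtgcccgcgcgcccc
Mrpl52 (chr14:54426759-54426908, strand plus): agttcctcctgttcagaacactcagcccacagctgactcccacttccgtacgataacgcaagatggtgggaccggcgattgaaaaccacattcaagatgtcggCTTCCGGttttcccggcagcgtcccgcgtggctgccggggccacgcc

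In these lines Mrpl45 carried the NRF1 letters at 120 and at 38 bases before the start, and Mrpl12 carried them on the opposite strand at 81 bases before it. Mrps22 had the ETS letters 11 bases before the start, Mrpl52 had them on the opposite strand 47 bases before it, and Mrpl16 had the cAMP response element 49 bases before it. Mrps2 had no match to the first 4 motifs in its 300 bases. Among the 69 members with a window, 18.8% held the NRF1 letters, against 7.17% of the 17492 protein-coding genes in the table and 10.3% of the 11243 that were also tested. The ETS letters stood in 37.7% of members, against 12.9% of all and 18.02% of tested genes. The YY1 letters stood in 11.6%, against 2.14% and 3.07%. At least 1 of these 3 motifs was present in 59.4% of members, against 20.0% of all and 28.0% of tested genes. The cAMP response element was found in 2.90% of members, against 2.54% of all and 3.28% of tested genes. The NF-Y box was found in 18.8%, against 20.7% and 22.9%. No motif contains another of the set, and a match describes letters, not a bound site. Median responses to CL in wt fat (log2 fold change) of tested members with and without a motif were 0.55 and 0.50 for NRF1, 0.48 and 0.52 for ETS, and 0.46 and 0.51 for YY1. They were 0.53 in the 2 members with the cAMP response element and 0.50 without it. The widest gap was that of the NF-Y box, at 0.35 in 12 members with it and 0.53 in 54 without, and none of these gaps was tested.

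In wt fat, CL raised most genes of the mitochondrial ribosome, each by a modest amount. The summed level of all members was 2425, 2522 and 2492 CPM in the 3 wt saline libraries and 3631, 3383 and 3586 in the 3 wt CL libraries. All 75 tested members had a positive log2 fold change, 61 passed the test as higher (edgeR quasi-likelihood, Benjamini-Hochberg adjusted p under 0.05) and none as lower, whereas 19.6% of all 16554 tested genes were called higher and 17.1% lower. The median log2 fold change of the members was 0.50, a 1.41-fold rise, beside -0.01 for all genes. In 67 members the lowest wt CL library lay above the highest wt saline library, which was so for 26.6% of all genes, and the reverse order, found in no member, held for 24.4%. Only Mrps2 rose more than 2-fold in wt fat, and 26 members rose more than 1.5-fold.

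The size of this rise depends on how libraries are scaled. CPM here are scaled by TMM, a factor that makes the typical gene equal between libraries. Under library size alone, the median of all genes in wt CL against wt saline moved to -0.33, the median member was at 0.18, 53 of 75 members were positive and 36 passed as higher, with none lower. Of all 16554 genes, 1329 were then called higher and 8048 lower. Relative to all genes the members stood 0.51 higher under either scaling. A change of scaling shifts all genes of a comparison by nearly the same amount, so this difference could hardly change and is no check. Of all gene counts, the members held 0.250% to 0.254% in wt saline, 0.284% to 0.292% in wt CL and 0.279% to 0.293% in ko saline. In ko CL they held 0.238% to 0.277%. By this share, the ranges of wt CL and ko saline overlapped.

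**Figure D1:**
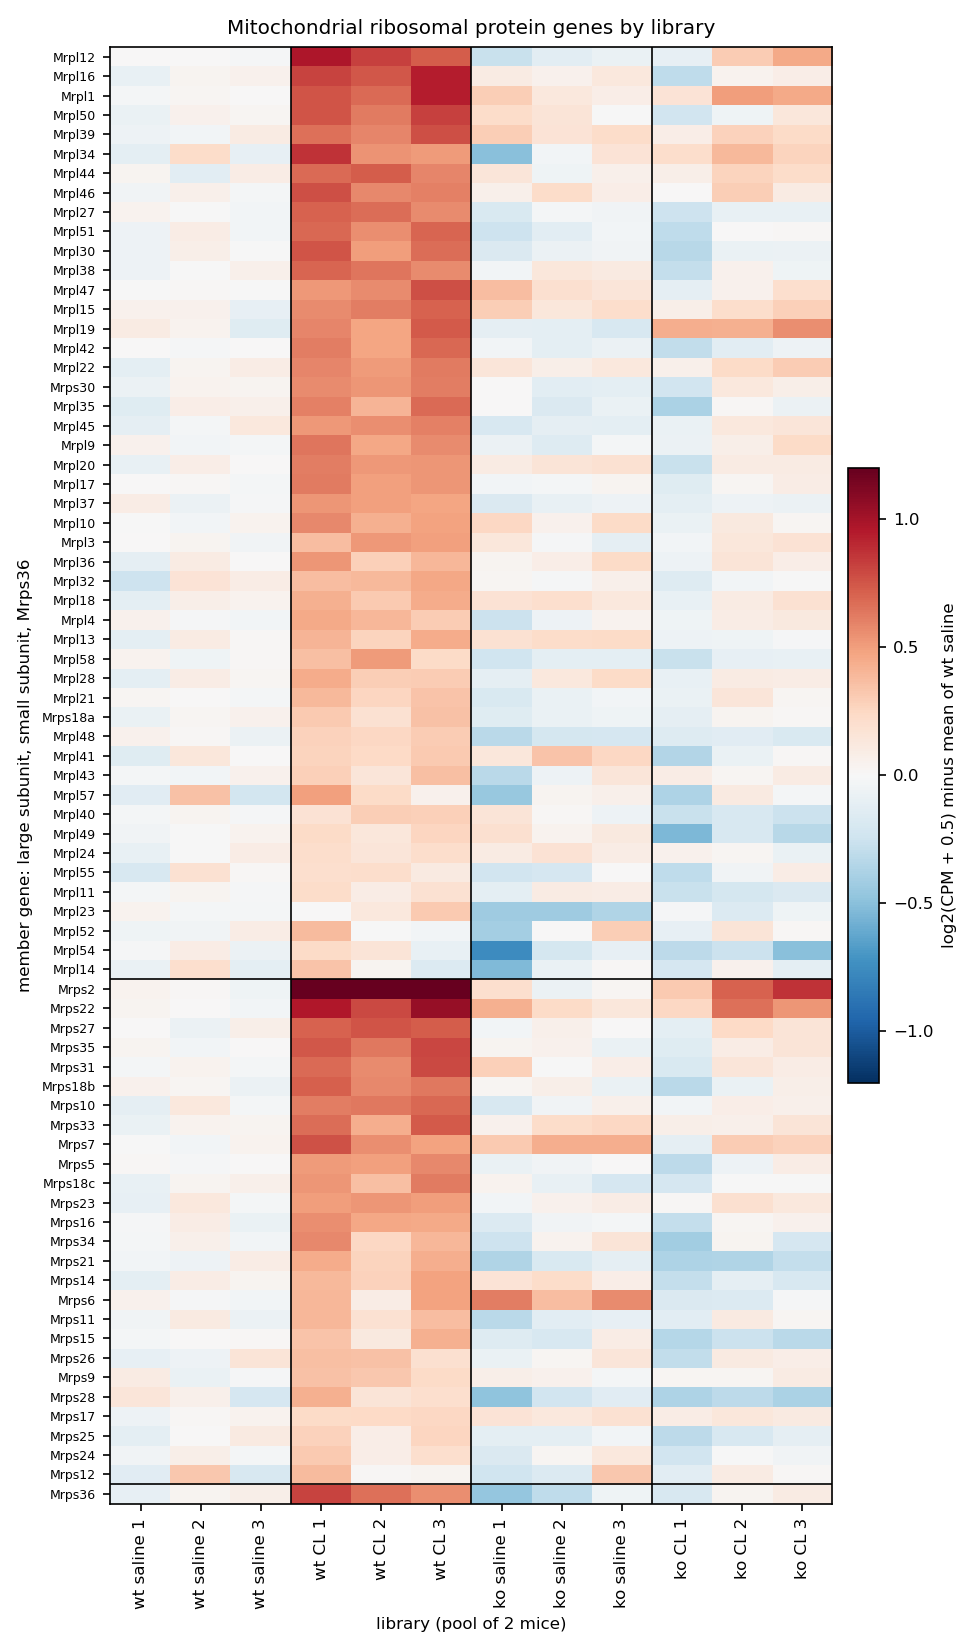
Each row is 1 of the 75 tested genes, grouped into the large subunit, the small subunit and Mrps36, and each column is 1 of the 12 libraries. Colour gives log2(CPM + 0.5) minus the mean of wt saline on the TMM scale, with values past the ends of the scale drawn in the end colour. The wt CL block is red throughout most rows, while ko CL stays near or below wt saline for most genes. With library size alone 53 of the 75 genes were positive in wt CL.

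Mrps2, a small subunit protein of bacterial descent, changed most. It measured 30.0, 29.5 and 28.1 CPM in wt saline and 73.4, 73.9 and 76.3 in wt CL. Every wt CL library was therefore well above every wt saline library (log2 fold change 1.35 ± 0.12 SE, edgeR adjusted p = 4.8e-06). Mrps22, a small subunit protein with no bacterial counterpart whose inherited defects cause mitochondrial disease, measured 23.5, 23.2 and 22.5 CPM in wt saline and 45.4, 40.4 and 48.1 in wt CL. The wt groups did not overlap for this gene either (0.95 ± 0.11, adjusted p = 3.3e-05).

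In the large subunit, Mrpl12 led. This protein forms the flexible stalk that recruits translation factors. It measured 62.7, 62.8 and 61.8 CPM in wt saline and 123, 110 and 104 in wt CL (log2 fold change 0.85 ± 0.11 SE, edgeR adjusted p = 0.00011). Mrpl16, which lies near the site where transfer RNAs are held, measured 30.1, 32.8 and 33.2 CPM in wt saline and 56.5, 53.8 and 61.9 in wt CL (0.84 ± 0.09, adjusted p = 2.7e-05). Mrpl1, the protein of the L1 stalk that moves spent transfer RNAs out, measured 24.1, 24.9 and 24.6 CPM and then 41.6, 39.5 and 47.5 (0.81 ± 0.10, adjusted p = 5.3e-05). For all 3 genes the wt groups were clear of each other. Per kilobase of exon, the median member was at 12.3 CPM in wt saline, from 2.15 for Mrpl23 to 51.0 for Mrps21. On that scale Mrpl12 stood in place 5 in wt saline and in place 1 in wt CL, at 73.3 CPM per kilobase.

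Both subunits took part. In the large subunit 39 of 48 tested genes were higher in wt CL, with a median of 0.50, and in the small subunit 21 of 26, with a median of 0.46. Members with a bacterial counterpart were called in 37 of 44 cases (median 0.44) and those without in 23 of 30 (median 0.54). The other genes fixed for description that rose in wt CL covered several working parts of the ribosome. Mrpl10, which anchors the Mrpl12 stalk, had a log2 fold change of 0.50. Mrpl3, near the peptidyl transferase centre, had 0.47, and Mrpl45, which holds the ribosome to the inner membrane, had 0.56. Mrpl44, which has a ribonuclease III fold, had 0.67, and Mrpl58, which can release stalled chains, had 0.37. In the small subunit Mrps27, a pentatricopeptide repeat protein, had 0.74, Mrps7, of the head of the subunit, had 0.61, Mrps16 had 0.50 and Mrps34 had 0.42. The call of Mrps34 was lost without wt saline replicate 1 or 3 or wt CL replicate 1 or 3 (0.33 to 0.43). The paralogs Mrps18b, Mrps18c and Mrps18a, which descend from the same bacterial protein, had 0.65, 0.52 and 0.29. Mrps18a and Mrpl40 (0.26 on the TMM scale) turned slightly negative with library size alone, at -0.03 and -0.06.

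The 14 members that did not pass in wt fat were Mrpl11, Mrpl14, Mrpl23, Mrpl43, Mrpl49, Mrpl52, Mrpl54, Mrpl55, Mrpl57, Mrps12, Mrps24, Mrps25, Mrps26 and Mrps28. The median of their mean levels in wt saline was 16.0 CPM, against 32.0 for the 61 that passed. These means ran from 6.62 CPM for Mrpl52 to 56.5 for Mrpl49, and the part of level in the calls was not tested. Mrpl14 had the smallest log2 fold change (0.08 ± 0.16 SE). Mrps12, which guards decoding accuracy, measured 7.04, 9.85 and 6.76 CPM in wt saline and 10.3, 7.88 and 7.99 in wt CL (0.15 ± 0.19), and the groups overlapped. Mrpl11, of the centre that triggers translation factors, was at 0.17 ± 0.07 (edgeR adjusted p = 0.075).

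In ko fat the same treatment moved few of these genes. Summed levels were 2506, 2535 and 2598 CPM in the ko saline libraries in order of size, and 2239, 2572 and 2586 in ko CL replicates 1, 2 and 3. The ranges of ko CL and ko saline overlapped. Of 75 members 5 were higher and 8 lower, where 27.2% of all genes were called higher and 27.5% lower, and the members' median log2 fold change was -0.03. Groups were apart for 6 members upward and 10 downward, against 29.7% and 31.2% of all genes. Scaled by library size alone, 4 members were higher and 21 lower, where 3701 of all 16554 genes were higher and 5475 lower.

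The 5 that rose were Mrpl19, Mrps2, Mrpl12, Mrpl23 and Mrpl45. Mrpl19, a protein at the face between the subunits, measured 15.5, 15.3 and 14.6 CPM in ko saline and 22.8, 22.7 and 24.8 in ko CL. The groups did not overlap, and the log2 fold change was 0.63 ± 0.09 SE (edgeR adjusted p = 5.7e-05) in ko against 0.61 ± 0.09 in wt, where it measured 17.96, 17.3 and 15.1 and then 25.3, 23.4 and 28.1. The difference between these responses was 0.02 ± 0.12 (adjusted p = 0.92), which leaves room for a difference of the size of that error in either direction. Mrps2 measured 33.6, 27.7 and 29.7 CPM in ko saline and 36.4, 48.1 and 53.7 in ko CL, so that all ko CL libraries were higher (0.60 ± 0.12, adjusted p = 0.00076). The rise of Mrpl12 (0.40 ± 0.11) came with 58.4, 77.4 and 85.7 CPM in ko CL after 51.9, 57.2 and 59.0 in ko saline, and here 1 ko CL library lay inside the ko saline range. Mrpl23, which lines the exit of the peptide tunnel, rose by 0.35 and Mrpl45 by 0.21. The rise of Mrpl12 did not pass without ko saline replicate 1 (0.31), ko CL replicate 2 (0.33) or ko CL replicate 3 (0.24), and that of Mrpl45 did not pass in 6 of the 12 fits that leave out 1 library.

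The 5 largest falls were those of Mrps6, Mrpl49, Mrpl41, Mrps14 and Mrpl40. Mrps6 measured 113, 95.6 and 109 CPM in ko saline and 65.5, 65.8 and 73.3 in ko CL. All ko CL libraries were below all ko saline libraries (-0.64 ± 0.10 SE, edgeR adjusted p = 0.00012). Mrpl49, a large subunit protein with no bacterial counterpart, measured 64.5, 58.0 and 61.4 CPM and then 38.8, 49.5 and 44.8 (-0.47 ± 0.08, adjusted p = 0.00035), again without overlap. Mrpl41 was at -0.38, Mrps14 at -0.35 and Mrpl40 at -0.29. Of the 61 members that rose in wt fat, 4 rose in ko fat, 6 fell and 51 passed in neither direction.

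Library ko CL replicate 1 was the lowest of its group for 66 of the 75 members. It also had the highest summed macrophage markers (15294 CPM) and the lowest summed adipocyte markers (17962 CPM) of the 12 libraries, and their part in the result was not tested. Without this library, 9 members were called higher in ko fat and the median was at 0.03. Without ko CL replicate 2, 13 were called lower and 3 higher, and 3 were also higher without ko CL replicate 3 or without ko saline replicate 1. Without wt saline replicate 1, ko CL replicate 1 and ko CL replicate 2 together, a set chosen after seeing the data because of their cell type markers, 5 were higher and 4 lower. That fit leaves 1 ko CL library, which is assumed to vary like the other groups.

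**Figure D2:**
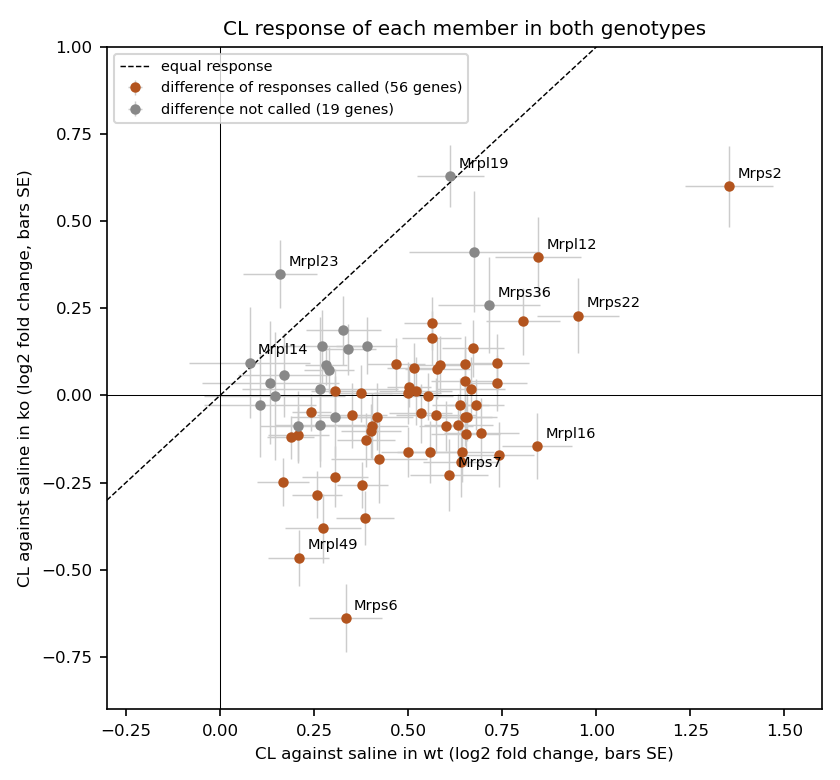
Each point is 1 tested member, with its log2 fold change of CL against saline in wt fat on the x axis and in ko fat on the y axis (TMM scale, bars SE). Points in orange are the 56 whose 2 responses differed by the test, and the dashed line marks equal responses. Nearly all points lie below the line, with Mrpl14, Mrpl19 and Mrpl23 on the other side. All x values are positive here, and 53 of 75 are with library size alone.

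The difference between the responses was tested directly as an interaction. It was negative for 72 of 75 members and passed for 56 of them, none in the other direction, where 23.6% of all genes were called more negative and 21.8% more positive. The median was -0.50, beside -0.03 for all genes, and with library size alone 36 members passed as more negative and 1 as more positive. Under that scaling 2267 of all 16554 genes were called more negative and 5386 more positive. The largest differences were those of Mrpl16 (-0.99 ± 0.13 SE, edgeR adjusted p = 7.0e-05), Mrps6 (-0.97 ± 0.14) and Mrpl50 (-0.91 ± 0.13), followed by Mrps7 (-0.84 ± 0.15) and Mrpl47 (-0.83 ± 0.14). Mrpl16 measured 34.4, 33.2 and 34.9 CPM in ko saline and 25.9, 33.0 and 33.9 in ko CL, so its wt rise had no counterpart in ko fat. The 61 members higher in wt CL were chosen by the wt response, which is also part of this difference, so the next count is not independent. Of these 61, 53 had a more negative response in ko fat by this test. Among them, Mrps2 and Mrpl12 rose in both genotypes and rose less in ko, with differences of -0.75 and -0.45. The difference of Mrpl12 did not pass in 7 of the 12 fits that leave out 1 library, namely without any wt saline library, wt CL replicate 1 or 2, or ko saline replicate 2 or 3, at -0.47 to -0.38.

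Under saline, knockout of Cdk7 was accompanied by little change in these genes. Summed levels overlapped between ko saline and wt saline. Of 75 members 2 were higher and 2 lower, where 7.99% of all genes were called higher and 6.45% lower, and the median was near 0 (-0.00). Groups did not overlap for 14 members upward and 10 downward, against 19.4% and 18.2% of all genes. The higher pair was Mrps6, at 76.4, 73.1 and 72.2 CPM in wt saline against 113, 95.6 and 109 in ko saline (0.52 ± 0.10 SE, edgeR adjusted p = 0.0048), and Mrps7, at 63.3, 61.8 and 65.4 against 78.9, 86.1 and 86.2 (0.40 ± 0.10, adjusted p = 0.023). For both genes every ko saline library was above every wt saline library. The lower pair was Mrpl23, at 10.8, 10.3 and 10.3 CPM in wt saline against 7.65, 7.69 and 8.07 in ko saline (-0.43 ± 0.10, adjusted p = 0.014), and Mrpl48, a protein of the central protuberance, at 46.3, 45.1 and 42.5 against 35.6, 38.4 and 38.6 (-0.25 ± 0.06, adjusted p = 0.013). With library size alone the count turned to 22 members higher and none lower, where 3733 of all 16554 genes were higher and 506 lower. Neither fall passed there. Without ko CL replicate 1, which is in neither group compared but shares the fit, 8 members were higher. Mrps7 did not pass without wt saline replicate 2 or 3 or ko saline replicate 2 or 3 (0.38 to 0.42), which leaves 1 higher. Mrpl48 did not pass without wt saline replicate 1 or 2 or ko saline replicate 1, and Mrpl23 did not pass without ko saline replicate 2 (-0.41).

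Mrps6 stood apart from the other members in several ways. Its highest group mean was in ko saline (106 ± 9.34 CPM, SD, n = 3), whereas the other 74 members were highest in wt CL. Its correlation with the median of the other members over the 12 libraries was 0.31, the lowest of all, beside a median of 0.89 over members, and 54 members were above 0.8. These correlations share libraries and the scaling between genes and are given as a description. In GENCODE M21, Mrps6 (chr16:92058270-92112227, GRCm38) shares 19.9% of its exon bases with Slc5a3 on the same strand, a gene that had 0 counts in every library. How reads of the shared stretch were assigned was not tested. The ratio of summed large to small subunit CPM was 2.01 to 2.04 in ko saline and 2.10 to 2.17 in the other groups. Without Mrps6 and Mrps7 it was 2.60 to 2.61 in ko saline and 2.53 to 2.62 elsewhere, so the low ratio rested on these genes.

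**Figure D3:**
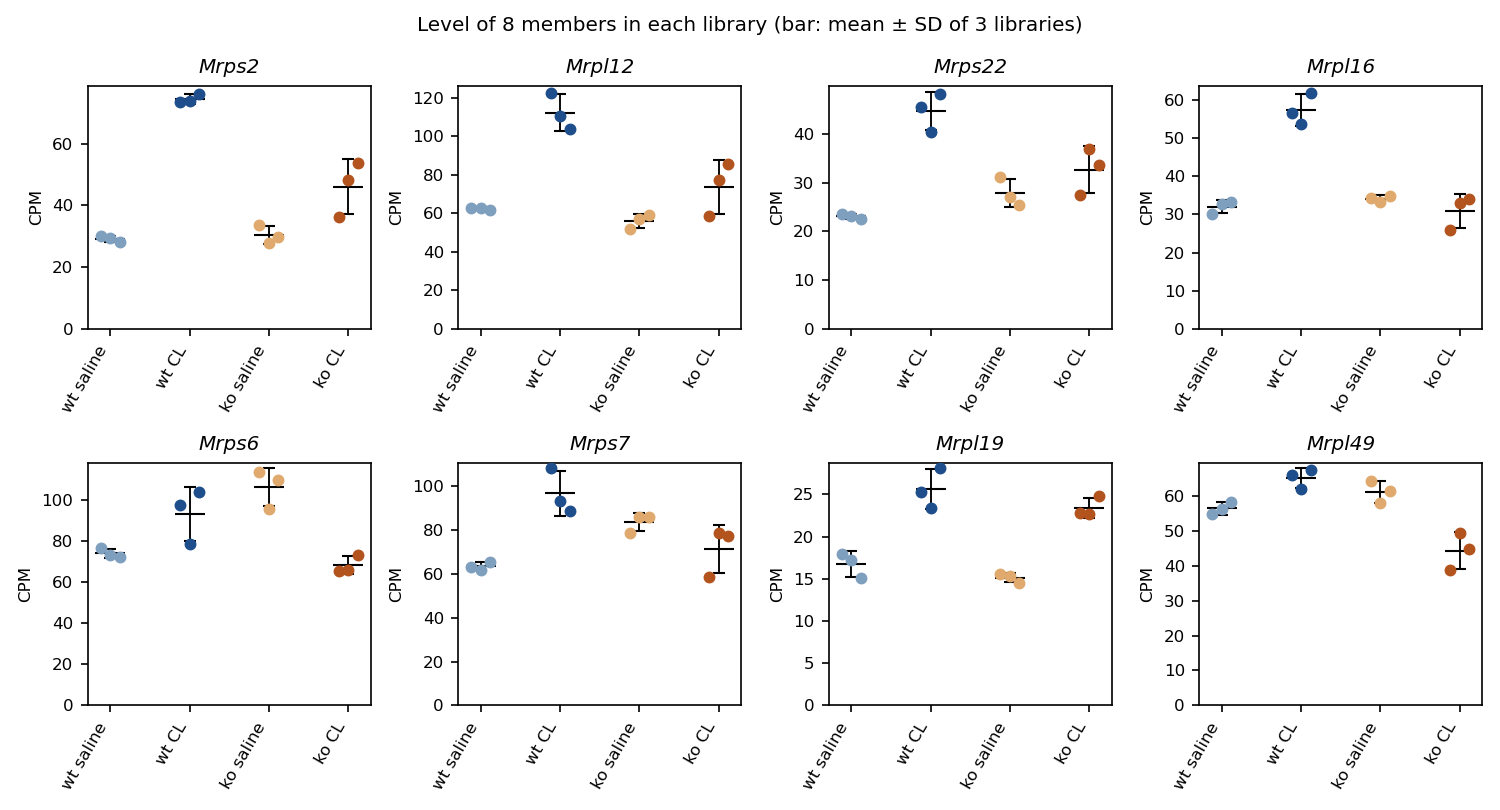
CPM on the TMM scale (y axis from 0) of 8 members in each of the 12 libraries, with points for libraries and bars for the mean and SD of 3. Mrps2, Mrpl12, Mrps22 and Mrpl16 peak in wt CL, Mrps6 peaks in ko saline, and Mrpl19 is raised by CL in both genotypes.

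Under CL, the members were lower in ko than in wt fat almost without exception. All 75 had a negative log2 fold change and 66 passed as lower, none as higher, where 29.3% of all genes were called lower and 27.6% higher. The median was -0.48, a level 0.717 times that of wt CL, beside 0.00 for all genes. Scaled by library size alone, 52 were negative, 21 passed as lower and 3 as higher, and the median of all genes then stood at 0.39. Of all 16554 genes, that scaling called 2237 lower and 8667 higher. In 70 members all ko CL libraries lay below all wt CL libraries, against 32.7% of all genes, and the reverse held for no member and 30.9% of all genes. This comparison and the wt response share the 3 wt CL libraries. In 59 members all wt CL libraries lay above all 9 other libraries. The share of all genes with this order was not worked out. The large subunit had 40 of 48 genes lower (median -0.47) and the small subunit 25 of 26 (median -0.57).

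Mrpl16 was again at the far end, at -0.89 ± 0.09 SE (edgeR adjusted p = 3.7e-06). Mrpl30, of the large subunit, measured 109, 91.9 and 103 CPM in wt CL and 51.1, 61.2 and 61.4 in ko CL (-0.81 ± 0.08, adjusted p = 3.2e-06). Mrpl27, whose bacterial relative reaches toward the peptidyl transferase centre, measured 69.4, 67.6 and 63.0 and then 35.6, 39.8 and 39.7 (-0.80 ± 0.07, adjusted p = 5.5e-07). For Mrpl27 the ko CL values were close to those of wt saline, 43.6, 42.1 and 41.2. Mrpl50 was at -0.78 and Mrps18b at -0.76. Mrps28, which had not passed in wt CL, was at -0.64 here, and Mrpl11 at -0.39. Mrps30, in the large subunit, was at -0.58 and Mrps36 at -0.74. Mrpl3 (-0.37) and Mrps18a (-0.31) turned slightly positive with library size alone, at 0.01 and 0.08.

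**Figure D4:**
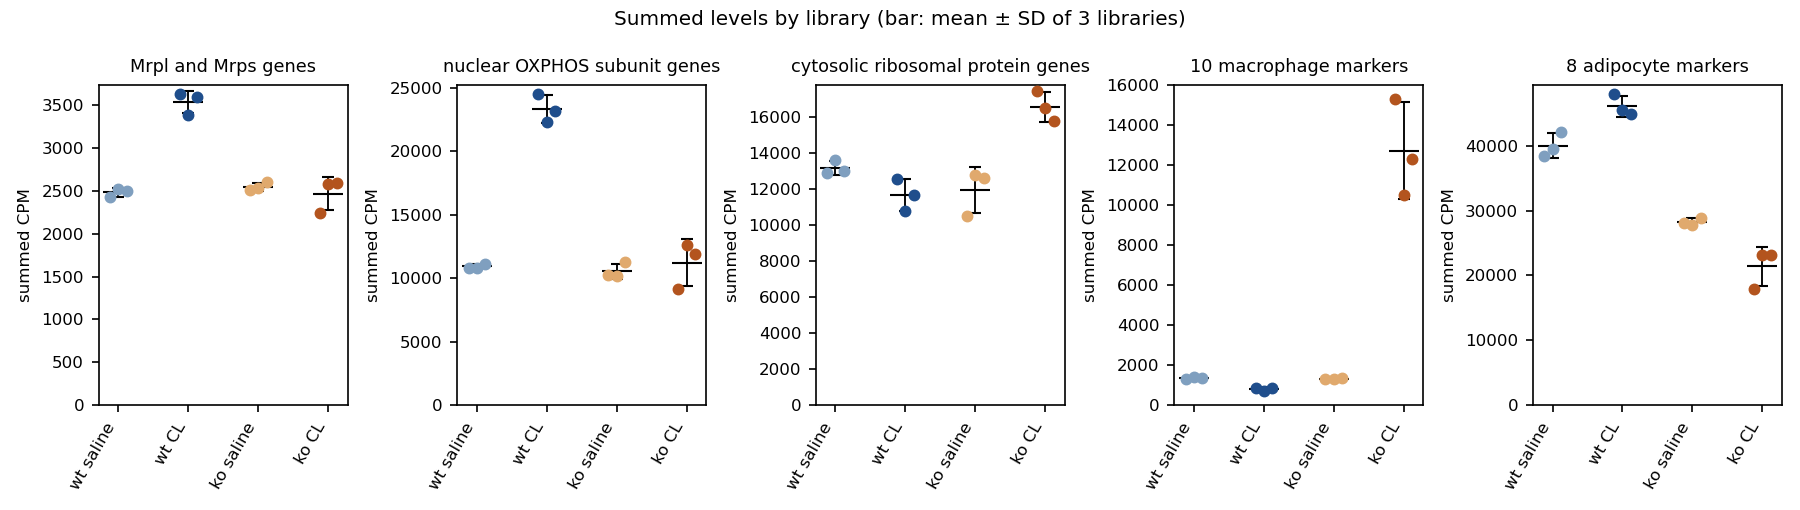
Summed CPM on the TMM scale in each library (points) with the mean and SD of 3 libraries per group (bars), y axes from 0. The Mrpl and Mrps genes and the nuclear OXPHOS subunit genes are highest in wt CL, the cytosolic ribosomal protein genes and macrophage markers are highest in ko CL, and the adipocyte markers are lowest in ko CL.

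Cell type markers moved with the genotype difference under CL. The 8 adipocyte markers were all lower in ko CL than in wt CL (median -1.32) and the 10 macrophage markers all higher (median 3.93), and the part of these markers in the members' difference was not tested. Markers of endothelium were lower in 6 of 6 cases and those of fibroblasts and progenitors higher in 5 of 6. In wt CL against wt saline, the macrophage markers were lower in 7 of 10 cases (median -0.62) while the adipocyte markers had 1 higher and 2 lower (median -0.00). Without the 3 libraries named above, 57 members passed as higher in wt CL. The same fit called 54 lower in ko CL than in wt CL and 41 with a more negative response in ko, but ko CL then has 1 library and its spread is taken from the other groups.

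The other genes of mitochondrial translation are given from lists fixed with earlier results known. Of 5 ribosome proteins that carry other symbols, 3 were higher in wt CL and 4 lower in ko than in wt under CL, and with library size alone 1 was higher and 1 lower. Ptcd3, a small subunit protein that binds RNA, measured 59.2, 57.3 and 59.2 CPM in wt saline and 134, 136 and 153 in wt CL (1.27 ± 0.09 SE, edgeR adjusted p = 1.5e-06), and 73.9, 64.2 and 62.0 in ko saline against 65.4, 80.2 and 80.5 in ko CL. The wt groups were far apart and the ko groups overlapped. Dap3, a GTP-binding small subunit protein, was at 0.28 in wt and fell by 0.41 on the log2 scale in ko.

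Factors that use the ribosome came next. Of 15 translation factors 13 were higher in wt CL (median 0.52) and 13 were lower in ko than in wt under CL (median -0.49). Gfm1, the elongation factor that moves the ribosome along, had a log2 fold change of 1.05 in wt and 0.09 in ko. Tufm, which delivers transfer RNAs, had 0.71 and 0.15, and Lrpprc, which stabilises mitochondrial messenger RNAs, had 0.77 and 0.18. Of 20 genes for charging mitochondrial transfer RNAs, 16 were higher in wt CL (median 0.40) and 17 lower in ko under CL (median -0.51). Both wt medians stayed positive with library size alone, at 0.21 and 0.08, and 8 and 7 genes passed. In ko against wt under CL that scaling gave 5 translation factors lower and 1 higher (median -0.11), and 6 charging genes lower and 3 higher (median -0.12).

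Assembly and RNA modification factors numbered 27, of which 18 were higher in wt CL (median 0.35). Under CL, 21 were lower in ko and 2 higher. These counts became, with library size alone, 7 higher and 3 lower in wt, and 6 lower and 6 higher in ko against wt. Trub2, a pseudouridine synthase, had a log2 fold change of 1.15 in wt CL and of -1.79 in ko against wt under CL. The 2 that were higher were Rbfa, a small subunit assembly factor, at 0.27, and Rpusd4, another pseudouridine synthase, at 0.34. Of 12 genes for transcription and replication of mitochondrial DNA, 6 were higher in wt CL and Tk2, a kinase that supplies nucleotides, was lower (-0.29). Their median of 0.25 turned to -0.06 with library size alone. Tfam, which packages the mitochondrial genome, was at 0.37 in wt and -0.45 in ko against wt under CL, and Polrmt, the mitochondrial RNA polymerase, did not pass (0.38 and -0.23).

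The ribosomal RNAs of the same particle are made in mitochondria and were added to the description after the lists. In wt CL they moved further than the messenger RNAs of the particle's proteins. The small subunit RNA gene mt-Rnr1 measured 142, 201 and 193 CPM in wt saline and 863, 822 and 949 in wt CL (2.30 ± 0.16 SE, edgeR adjusted p = 1.1e-06). In ko it measured 363, 272 and 258 and then 251, 327 and 299 (-0.03 ± 0.15, adjusted p = 0.90), with overlap. The large subunit RNA gene mt-Rnr2 had log2 fold changes of 2.07 in wt and 0.05 in ko. Both RNA genes were higher in ko saline than in wt saline, by 0.74 and 0.55. All 7 tested mitochondrial messenger RNAs were higher in wt CL (median 1.35) and 4 were lower in ko CL against ko saline.

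Nuclear genes for subunits of oxidative phosphorylation, whose proteins are made in the cytosol and join those made by the mitochondrial ribosome, were also followed. Of these, 71 of 79 were higher in wt CL, with a median of 0.86 that exceeds the 0.50 of the ribosome genes, and 74 were lower in ko than in wt under CL. Under library size alone 61 were higher, with a median of 0.54, and 64 were lower in ko under CL. Cytosolic ribosomal proteins, the nearest like family by function, took another course. Of 74 tested, none was higher and 12 (16.2%) were lower in wt CL (median -0.17). Of all genes, 19.6% were called higher and 17.1% lower there, so the share lower was near that of all genes. In ko CL against ko saline 67 were higher and none lower (median 0.49), where 27.2% of all genes were called higher. Library size alone gave 71 lower in wt, where 8048 of all 16554 genes were lower. It gave 61 higher in ko, where 3701 of all genes were higher, so neither direction changed.

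**Figure D5:**
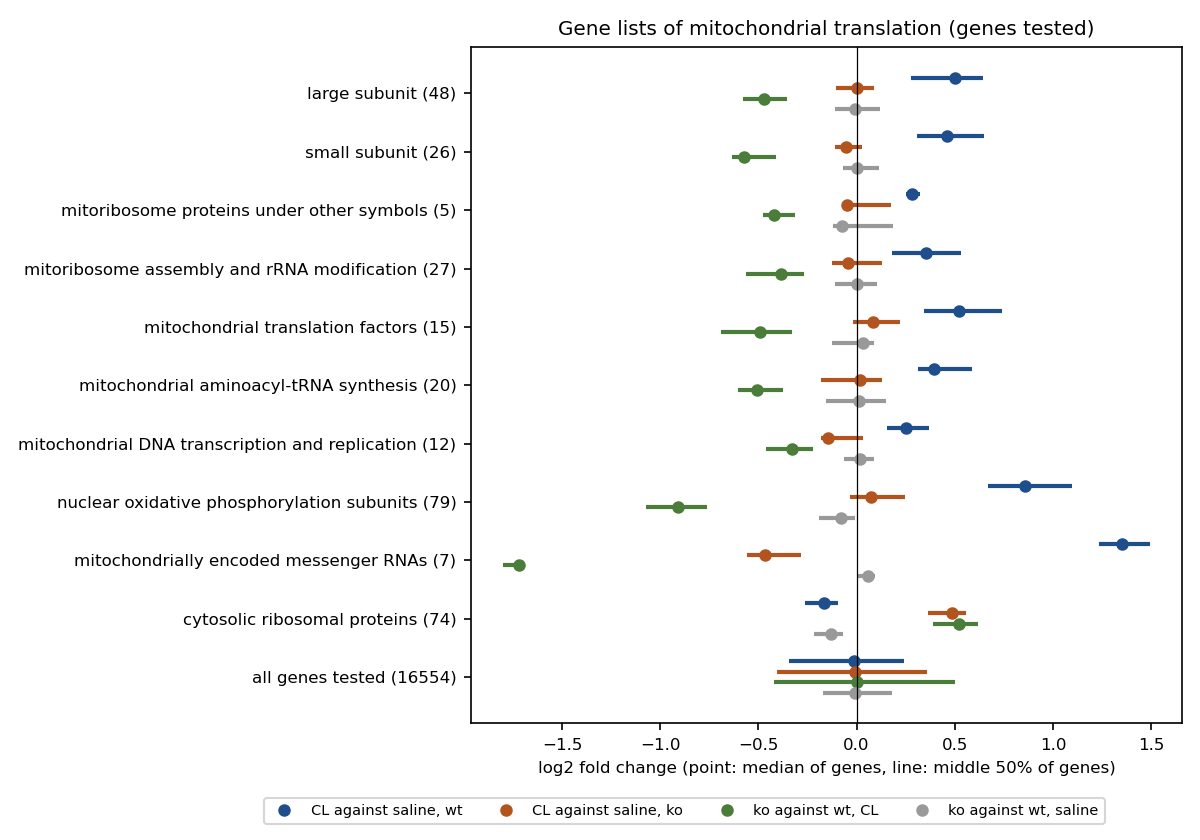
Median log2 fold change (point) and middle 50% of genes (line) of each gene list, for 4 comparisons in 4 colours on the TMM scale, with the number of tested genes in brackets. Lists of mitochondrial translation lie right of 0 for CL in wt and left of 0 for ko against wt under CL, and cytosolic ribosomal proteins lie on the other side. With library size alone the wt median turns negative for the mitochondrial DNA list (-0.06) and for the proteins under other symbols (-0.03), and the ko against wt median turns positive for the mitochondrial DNA list (0.06) and for assembly (0.00).

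Of 10 regulators of mitochondrial gene expression, 5 were higher in wt CL. Ppargc1a, the coactivator that drives mitochondrial biogenesis, measured 12.2, 12.4 and 11.7 CPM in wt saline and 19.8, 20.2 and 19.3 in wt CL (0.71 ± 0.17 SE, edgeR adjusted p = 0.0059). In ko it measured 11.2, 9.81 and 11.6 and then 4.92, 7.58 and 9.83 (-0.56 ± 0.18, adjusted p = 0.017), so the difference of responses was -1.27 ± 0.25 (adjusted p = 0.0011). Esrrg, an orphan nuclear receptor, had 1.98 in wt and -0.87 in ko. Esrra, its relative, rose in both, by 0.64 and 0.62. Myc, a growth regulator known to drive cytosolic ribosome genes, had -0.24 in wt and 1.16 in ko. Under library size alone 2 regulators were higher and 4 lower in wt CL.

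Many members share a start region with another gene. In GENCODE M21, 23 of 78 (29.5%) had a protein-coding neighbour on the opposite strand whose 5′ end lay within 1000 bases, with up to 200 bases of overlap allowed, against 7.93% of all protein-coding genes and 10.9% of those tested. The 23 neighbours were tested, and in wt CL 9 were higher and 1 lower (median 0.21), where 19.6% of all genes were called higher and 17.1% lower. In ko against wt under CL 6 were higher and 5 lower, where 27.6% of all genes were called higher and 29.3% lower. The members on the other side were mostly lower. Mrpl36 and Ndufs6, a complex I subunit gene, start 29 bases into each other and had 0.42 and 0.66 in wt CL and -0.36 and -0.95 in ko against wt under CL. Mrps27 and Ptcd2, an RNA-binding protein of mitochondria, start 81 bases apart and had 0.74 and 0.80 in wt CL. Mrpl49 and Fau, which encodes a cytosolic ribosomal protein, start 59 bases apart and took opposite courses in ko against wt under CL, with -0.56 and 0.85. The deposited file names state counting by strand, and these pairs lie on opposite strands.

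Some members could not be followed. Mrpl2, Mrpl33 and Mrpl53 had 0 counts in all 12 libraries. Mrpl53 (chr6:83109040-83109939) shares 88.0% of its exon bases with another gene on the same strand, Mrpl33 (chr5:31596935-31664384) shares 3.56%, and Mrpl2 (chr17:46646229-46650139) shares none. The cause of the 0 counts was not tested. Mrps34, Mrps18c, Mrps6 and Mrps24 share 37.0%, 23.2%, 19.9% and 15.4% of their exon bases with a same-strand gene, so the levels of these 4 are uncertain. Listed under the family's names, 5 pseudogenes had at most 7 counts in a library.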

How the data were processed

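The authors deposited raw counts per gene, and the submitters' processing notes name STAR, HTSeq and GRCm38. Versions and annotation are not given in the sources used. Deposited file names state reverse-strand counting. HTSeq leaves out reads that fit more than 1 gene. Of 53379 identifiers, 53274 were matched to GENCODE M21. The 5 summary lines per file, 12.5% to 17.2% of counted reads, entered neither library sizes nor tests. They held 16.5% to 17.2% in wt CL and at most 14.5% in the other groups. TMM factors were 0.80 to 0.84 in wt CL and 1.00 to 1.15 in the other groups. The part of these differences in the wt CL results was not tested.

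Counts were tested with edgeR 4.0.16 (R 4.3.3): TMM scaling, filterByExpr with a minimum count of 10, glmQLFit and glmQLFTest over all 12 libraries with 8 residual degrees of freedom, and Benjamini-Hochberg adjustment over 16554 genes, called at an adjusted p under 0.05. The biological coefficient of variation was 11.5%. CPM use TMM-scaled library sizes. Simulated data for the wt response had 16287 genes tested and 100 genes changed at each fold, up and down alike. The changed genes were drawn only from those of moderate depth or more. The fit recovered 72% of genes changed 1.5-fold and 89% of those changed 2-fold, with 2.42% false among calls. Genes with fewer counts, or changes in as many genes as in the real data, were not simulated. No 2 libraries of a group agreed within sampling noise (chi-square per degree of freedom 6.96 to 55.5). Alternatives were other scaling, filters and tests (DESeq2 1.42.0, limma 3.58.1), a replicate block, only the groups compared, and leaving out each library.

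The members, gene lists, markers and tests were chosen with earlier results of these data known. For each of 5 contrasts the text names the 5 members with the largest called change in each direction, beside members fixed by function, members with 0 counts and, from related lists, genes with the smallest adjusted p.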

Additional observations from a re-analysis of the deposited data

Results flagged for a closer look

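The response to CL differed between the genotypes for 56 of the 75 tested members by the interaction test of edgeR (adjusted p under 0.05), all with a smaller or more negative response in ko than in wt. The values below are the ko response minus the wt response on the log2 scale, for the genes the report describes. Among large subunit genes it was -0.99 for Mrpl16, -0.91 for Mrpl50, -0.83 for Mrpl47, -0.66 for Mrpl10, -0.54 for Mrpl40 and -0.54 for Mrpl44. Smaller differences in the same subunit were -0.50 for Mrps30, -0.45 for Mrpl12, -0.42 for Mrpl11, -0.38 for Mrpl3, -0.37 for Mrpl58 and -0.36 for Mrpl45. The call of Mrpl58 was lost without wt saline replicate 2 (-0.34) and without wt CL replicate 2 (-0.29), and that of Mrpl12 in 7 of the 12 fits that leave out 1 library. Among small subunit genes it was -0.97 for Mrps6, -0.84 for Mrps7, -0.76 for Mrps18b, -0.75 for Mrps2 and -0.72 for Mrps22. The remaining small subunit genes were Mrps27 at -0.64, Mrps34 at -0.60, Mrps18c at -0.51 and Mrps16 at -0.49. For Mrps6 and Mrps7 the difference also holds a higher level in ko saline than in wt saline.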

How the results depend on the processing

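With library size alone, 36 members were higher in wt CL, 21 lower and 4 higher in ko CL against ko saline, 22 higher and 0 lower in ko saline against wt saline, 21 lower and 3 higher in ko CL against wt CL, and 36 more negative and 1 more positive in the difference of responses. There Mrpl40 (-0.057) and Mrps18a (-0.0266) changed sign in wt CL, as did Mrpl3 (0.0124) and Mrps18a (0.076) in ko against wt under CL. Under saline 4 members were higher by DESeq2 and by a filter of 1 CPM in 3 libraries. Without wt saline 1, ko CL 1 and ko CL 2 together, an alternative added after seeing the data, 4 were lower in ko CL, which then has 1 library and is assumed to vary like the other groups. Leaving out each library in turn gave 3 to 9 higher (9 without ko CL replicate 1) and 7 to 13 lower (13 without ko CL replicate 2) in the ko response, and 1 to 8 higher (8 without ko CL replicate 1) and 1 to 2 lower under saline. It gave 55 to 63 higher in wt CL, 61 to 68 lower in ko under CL and 52 to 61 differences. Of 126 values named by the rule, 34 lost their call with library size alone and kept their sign. The 4 that changed sign there also lost their call, and 4 others gained a call. RLE size factors, DESeq2 and limma voom left all 126 calls as they were. The median of all genes with library size alone was -0.33 in wt CL and 0.39 in ko against wt under CL. Of all 16554 genes, that scaling called 3733 higher and 506 lower in ko saline against wt saline. In ko CL against ko saline it called 3701 higher and 5475 lower. In wt CL it called 1329 higher and 8048 lower, and in ko against wt under CL 8667 higher and 2237 lower. For the difference of responses it called 2267 more negative and 5386 more positive. Cdk7 passed under every alternative run. Among named values not called either way, 74 of 900 had the other sign under an alternative.

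The titles number replicates alike in each group, and same-numbered libraries did not deviate together (18 pairs, r from -0.36 to 0.18), so the numbers were not taken as pairs. With the replicate number as a block, 61 members were higher in wt CL, 65 lower in ko under CL and 56 differed in response, and no named call changed.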
